A study of Mus musculus with 5 samples.

Results

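Acvrl1, Acvr1, Eng, Tgfbr1, Tgfbr2, Tgfb1, Smad2, Smad3, Smad4 and Smad7 encode receptors, a ligand and intracellular mediators of transforming growth factor β (TGF-β) and bone morphogenetic protein (BMP) signalling. These 10 genes, of 52550 in the count table, were chosen by symbol to ask whether the low level of Acvrl1 in Bcor-mutant progenitors is shared by its pathway. Expression was measured by 3′ RNA sequencing (Quant-seq), which counts the ends of polyadenylated transcripts, in lineage-negative cKit+Sca1- bone marrow cells (KL cells), a sorted population of committed myeloid progenitors. BcorΔE9-10 mice (genotype scl-Cre-ERT +; Bcorfl/y, n = 3 libraries) lack exons 9 and 10 of Bcor, a subunit of a Polycomb repressive complex. BcorWT mice (scl-Cre-ERT +; Bcorwt/y, n = 2 libraries) carry the same Cre transgene and an intact Bcor gene. Both groups were male, received 5 daily doses of 1 mg tamoxifen at 3 to 6 months of age and were sampled 20 weeks after it. The Cre recombinase is driven in haematopoietic stem cells, so BcorΔE9-10 KL cells descend from cells in which the allele could be recombined. These counts do not show what share of the KL cells carried the recombined allele. The labels do not say whether a library came from 1 animal, so p-values measure the spread between these libraries.

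In this pathway a ligand such as Tgfb1 binds a type II receptor, which activates a type I receptor. The type I receptor then phosphorylates receptor-regulated Smads, which join Smad4 and enter the nucleus. Receptors for TGF-β and activin signal mainly through Smad2 and Smad3, whereas BMP receptors use Smad1, Smad5 and Smad9, and Smad7 is an inhibitor that is induced by the pathway. Acvrl1 is a type I receptor best known from endothelium, where it acts with the co-receptor Eng. In blood formation TGF-β is known as a brake on the division of stem and progenitor cells.

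Total counts ranged from 5998924 to 8303999 per library, and libraries of 1 group differed by more than sampling noise. Bcor itself had 168 to 196 counts in BcorΔE9-10 and 83 and 109 in BcorWT, which does not check the labels because transcript ends do not read the removed exons. Mpo, a gene of granulocyte progenitors, was abundant in every library (4290 to 5530 CPM). Ly6a, which encodes the Sca1 antigen excluded by the sort, had 8, 7 and 7 counts in BcorΔE9-10 and 4 and 3 in BcorWT. RNA of the excluded lineage antigens Ly6g (1272 to 4012 counts) and Itgam (651 to 1132 counts) was abundant in every library. A gene is termed called where its adjusted p by limma was under 0.05, which held for 1189 (10.1%) of the 11766 tested, 708 (6.02%) higher and 481 (4.09%) lower in BcorΔE9-10. Without adjustment 25.3% had a p under 0.05. When libraries were scaled by total counts alone the split became 1210 higher and 197 lower, and the median over all genes moved by 0.14 on the log2 scale. Levels are counts per 1e+06 (CPM) of a library total scaled by the trimmed mean of M-values (TMM). The log2 fold change of BcorΔE9-10 over BcorWT, as fitted by limma, is written log2FC.

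Of the 8 members tested beside Acvrl1, which was given no test, none was called lower. Tgfbr1, Tgfbr2 and Smad3 rose in BcorΔE9-10 progenitors, by 1.79-fold, 3.32-fold and 1.64-fold in mean CPM. The remaining 5 tested members (Eng, Tgfb1, Smad2, Smad4 and Smad7) did not pass the threshold, and Acvr1 was too low to be tested. Thus 3 of 8 tested members other than Acvrl1 were called, all 3 higher (37.5%, where 6.02% of all genes tested were called higher). With edgeR's quasi-likelihood test the count was also 3 higher and 0 lower (background 11.2%, 7.05% higher and 4.16% lower), and with DESeq2 it was 2 higher and 0 lower (background 10.9%, 6.39% higher and 4.49% lower). At an unadjusted p under 0.05 limma also gave 3 higher and 0 lower, where 25.3% of all genes passed in either direction. Without 1 library the count called higher fell to 1 (Tgfbr2), or to 0 without BcorWT library 1. The members were listed with earlier results of this contrast known, so this share is a description.

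**Figure D1:**
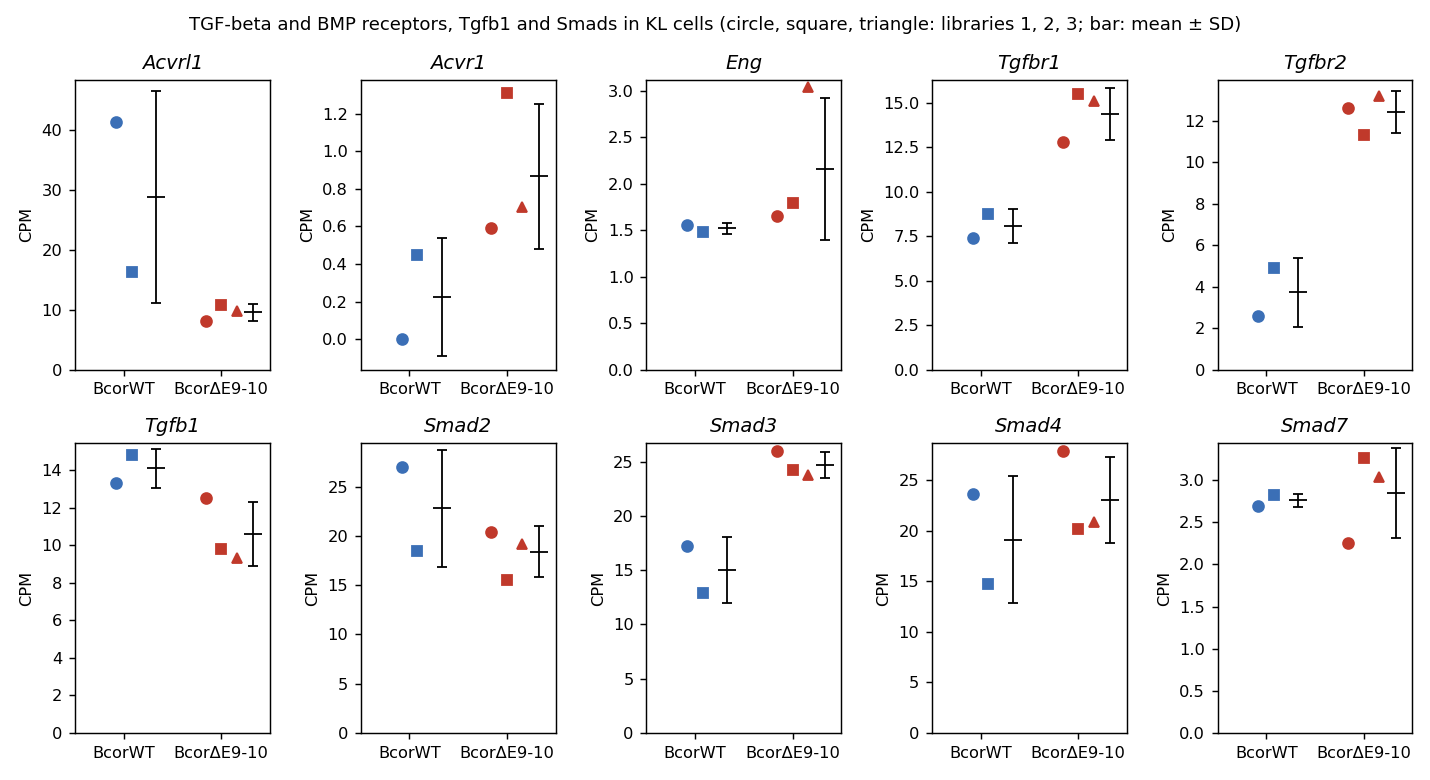
CPM of the 10 genes in each library (y axis; circle, square and triangle mark libraries 1, 2 and 3 of a group), with BcorWT in blue, BcorΔE9-10 in red and the mean ± SD of each group as a black bar. Acvrl1 lies at 16.3 and 41.3 CPM in BcorWT and at 8.04 to 10.8 in BcorΔE9-10, whereas Tgfbr1, Tgfbr2 and Smad3 lie higher in each BcorΔE9-10 library than in both BcorWT libraries.

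Acvrl1 (mm10, chromosome 15, 101128522 to 101145336, plus strand) entered the list because its fall in this same contrast was known, so its values are given without a test. Its counts were 68, 66 and 84 in BcorΔE9-10 against 291 and 110 in BcorWT, or 8.04, 10.8 and 9.82 CPM against 41.3 and 16.3 CPM. The mutant libraries lay close together and below both controls, and the controls differed from each other by 2.54-fold. The log2FC was -1.47 (SE 0.328), or -0.80 without BcorWT library 1 and -2.13 without BcorWT library 2. An annotated gene on the opposite strand, Gm16031, had 0 counts in every library. Since these are bulk samples, fewer cells that express a gene and less RNA per cell cannot be told apart here or for any gene below.

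Acvr1 is the other BMP type I receptor among the members (chromosome 2, 58388644 to 58567157, minus strand). It had 5, 8 and 6 counts in BcorΔE9-10 and 0 and 3 in BcorWT, which was under the expression filter. With no filter its log2FC was 2.16 (95% interval 0.22 to 4.10, limma adjusted p = 0.202). Both BcorWT counts lay below the 3 BcorΔE9-10 counts, and none of the 5 exceeded 8.

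Eng, the accessory receptor that presents ligand to Acvrl1 in endothelium (chromosome 2, 32646595 to 32682669, plus strand), was also low. It had 1.65, 1.79 and 3.04 CPM in BcorΔE9-10 and 1.56 and 1.48 CPM in BcorWT, from 10 to 26 counts per library. The groups did not overlap, but only BcorΔE9-10 library 3 stood clearly above the rest. Its log2FC of 0.45 had a 95% interval from -0.77 to 1.68 (limma adjusted p = 0.668), which spans both directions. Eng overlaps Fpgs, which had 54 to 79 counts per library, on the opposite strand. The strand setting of the counting is not given in the sources used here, so reads of the pair may be mixed.

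Tgfbr2, the type II receptor for TGF-β (chromosome 9, 116084293 to 116175360, minus strand), had the largest fold change of the called members. It had 12.6, 11.3 and 13.2 CPM in BcorΔE9-10 (107, 69 and 113 counts) and 2.56 and 4.89 CPM in BcorWT (18 and 33 counts). Every mutant library exceeded both controls by over the spread within either group. The means were 12.4 ± 1.00 CPM (SD, n = 3) and 3.72 ± 1.65 CPM (SD, n = 2), a log2FC of 1.80 (SE 0.362, limma adjusted p = 0.00461). This call was kept in 13 of 14 alternatives and was lost without BcorWT library 1, where the log2FC was 1.33 (limma adjusted p = 0.0685).

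Tgfbr1, the type I receptor that Tgfbr2 activates (chromosome 4, 47353222 to 47414931, plus strand), had 12.8, 15.5 and 15.1 CPM in BcorΔE9-10 and 7.38 and 8.74 CPM in BcorWT. The lowest mutant library thus lay above the higher control. Means of 14.4 ± 1.47 CPM (SD, n = 3) and 8.06 ± 0.960 CPM (SD, n = 2) gave a log2FC of 0.83 (SE 0.255, limma adjusted p = 0.0486). This value sits at the threshold and was past it in 3 of 14 alternatives, over which the adjusted p ran from 0.0216 to 0.250. The last 300 bases of its transcript hold 35.3% GC, which places it in the lowest of 5 bins of genes by GC content (15.3 to 35.3%), where 11.6% of genes were called higher and 1.55% lower. After removal of the GC trend of each library its log2FC was 0.68 (limma adjusted p = 0.105).

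Smad3, a receptor-regulated Smad of the TGF-β and activin branch (chromosome 9, 63646767 to 63757994, minus strand), had 26.0, 24.2 and 23.8 CPM in BcorΔE9-10 and 17.2 and 12.9 CPM in BcorWT. The mutant libraries spanned a narrow range above both controls. Means were 24.7 ± 1.17 CPM (SD, n = 3) and 15.0 ± 3.03 CPM (SD, n = 2), with a log2FC of 0.72 (SE 0.204, limma adjusted p = 0.0330). It passed in each of the 9 alternatives that kept all libraries and in none of the 5 that left 1 library out, where the adjusted p ran up to 0.189 and the log2FC from 0.52 to 0.93.

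The promoters of the members called higher were examined for sequence they share. RefSeq promoters (build GRCm38.p6, 250 bases before to 50 after a start site) were found for 6 of the 10 members (Acvr1, Eng, Smad3, Tgfb1, Tgfbr1 and Tgfbr2). Both strands were searched for a GC box (GGGCGG), a Smad palindrome (GTCTAGAC), a GC-rich Smad element (GGCGCC), an AP-1 element (TGANTCA) and a Runx element (TGTGGT). In the sequences below, written 5′ to 3′ in the direction of transcription, capitals mark matches. They are shown because these 3 genes were the ones called, and they come from chr4:47352972-47353271 (plus strand), chr9:116175314-116175613 (minus strand) and chr9:63757945-63758244 (minus strand).
Tgfbr1: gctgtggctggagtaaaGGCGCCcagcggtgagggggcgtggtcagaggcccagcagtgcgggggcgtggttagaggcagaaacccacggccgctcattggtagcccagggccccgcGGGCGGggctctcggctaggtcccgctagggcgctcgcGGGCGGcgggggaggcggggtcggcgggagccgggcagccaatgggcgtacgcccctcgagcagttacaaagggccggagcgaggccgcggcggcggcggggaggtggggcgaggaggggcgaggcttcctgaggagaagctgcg
Tgfbr2: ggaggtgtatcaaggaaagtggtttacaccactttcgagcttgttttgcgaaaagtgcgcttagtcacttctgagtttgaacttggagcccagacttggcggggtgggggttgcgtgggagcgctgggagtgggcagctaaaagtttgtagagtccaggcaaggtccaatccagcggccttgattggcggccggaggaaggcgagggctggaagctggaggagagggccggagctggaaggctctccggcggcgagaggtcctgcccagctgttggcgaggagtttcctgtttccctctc
Smad3: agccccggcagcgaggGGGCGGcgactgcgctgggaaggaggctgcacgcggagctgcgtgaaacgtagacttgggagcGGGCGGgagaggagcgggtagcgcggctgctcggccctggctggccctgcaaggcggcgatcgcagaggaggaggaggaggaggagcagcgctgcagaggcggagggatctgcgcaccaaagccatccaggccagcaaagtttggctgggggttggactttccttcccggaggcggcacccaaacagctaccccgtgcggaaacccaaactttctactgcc

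The Tgfbr1 promoter held 2 GC boxes and 1 GC-rich Smad element, and the Smad3 promoter held 2 GC boxes. None of the letters searched occurred in the Tgfbr2 promoter, so these 3 windows had no searched motif in common. Among 32851 promoters of this length, 35.7% held a GC box, 11.9% the GC-rich Smad element, 7.81% the AP-1 element, 16.8% the Runx element and 0.213% the Smad palindrome. The window at another Tgfbr1 start site held no match. Of the members that were not called, Acvr1 and Tgfb1 each held 6 GC boxes and Eng held no match.

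Smad2, the partner of Smad3 in the same branch, was not called. Smad2 (chromosome 18, 76241580 to 76305731, plus strand) had 20.4, 15.5 and 19.2 CPM in BcorΔE9-10 and 27.0 and 18.5 CPM in BcorWT, and the groups overlapped. Its log2FC was -0.28 (95% interval -0.72 to 0.17, limma adjusted p = 0.435). The ratio of Smad3 to Smad2 counts within a library, which does not depend on how libraries are scaled, was 1.27, 1.56 and 1.24 in BcorΔE9-10 and 0.637 and 0.696 in BcorWT. By the same measure Acvrl1 to Tgfbr1 was 0.630, 0.695 and 0.651 against 5.60 and 1.86. These ratios are descriptions, since the numerators were chosen or called on the same counts. Tgfbr1, the denominator for Acvrl1, was itself called higher on these counts, which widens that gap.

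Smad4, the partner shared by both branches (chromosome 18, 73639009 to 73703780, minus strand), had 27.9, 20.2 and 20.9 CPM in BcorΔE9-10 and 23.6 and 14.7 CPM in BcorWT. The groups overlapped, and the log2FC was 0.30 (95% interval -0.19 to 0.78, limma adjusted p = 0.442). Smad7, the inhibitory Smad (chromosome 18, 75367529 to 75395935, plus strand), had 2.25, 3.26 and 3.04 CPM against 2.70 and 2.82 CPM, so that both controls lay within the range of the mutant libraries. Its 19 to 26 counts per library gave a log2FC of 0.0049 with a 95% interval from -0.94 to 0.95 (limma adjusted p = 0.996), and its sign turned with DESeq2 size factors (-0.012). Tgfb1, the ligand (chromosome 7, 25687002 to 25705077, plus strand), had 12.5, 9.79 and 9.35 CPM in BcorΔE9-10 and 13.3 and 14.8 CPM in BcorWT. All mutant values lay below both controls, yet the log2FC of -0.42 (95% interval -0.91 to 0.077) did not pass (limma adjusted p = 0.282). Of the 30-base words at the Tgfb1 transcript end 9.22% occur elsewhere among genes. Across the 8 tested members other than Acvrl1 the groups did not overlap for 5, 4 with BcorΔE9-10 higher and 1 with it lower, where 42.8% of all genes tested showed no overlap (22.6% with BcorΔE9-10 higher and 20.3% lower).

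The rest of the pathway was described with 78 further genes listed by role, of which 43 were tested. Inhba, a subunit gene of activin, was lower in BcorΔE9-10, and the decoy receptor gene Bambi and the TGF-β-induced matrix gene Tgfbi were higher. In all, 2 genes rose (Bambi and Tgfbi), 3 fell (Inhba, Gdf3 and Tgif2) and 38 did not pass the threshold. The 11.6% called is near the 10.1% of all genes, and the median log2FC was 0.074, where that of all genes was 0.0043. For the lists below, the background over all genes was 6.02% called higher and 4.09% lower by limma. It was 7.05% and 4.16% by edgeR's quasi-likelihood test, and 6.39% and 4.49% by DESeq2.

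**Figure D2:**
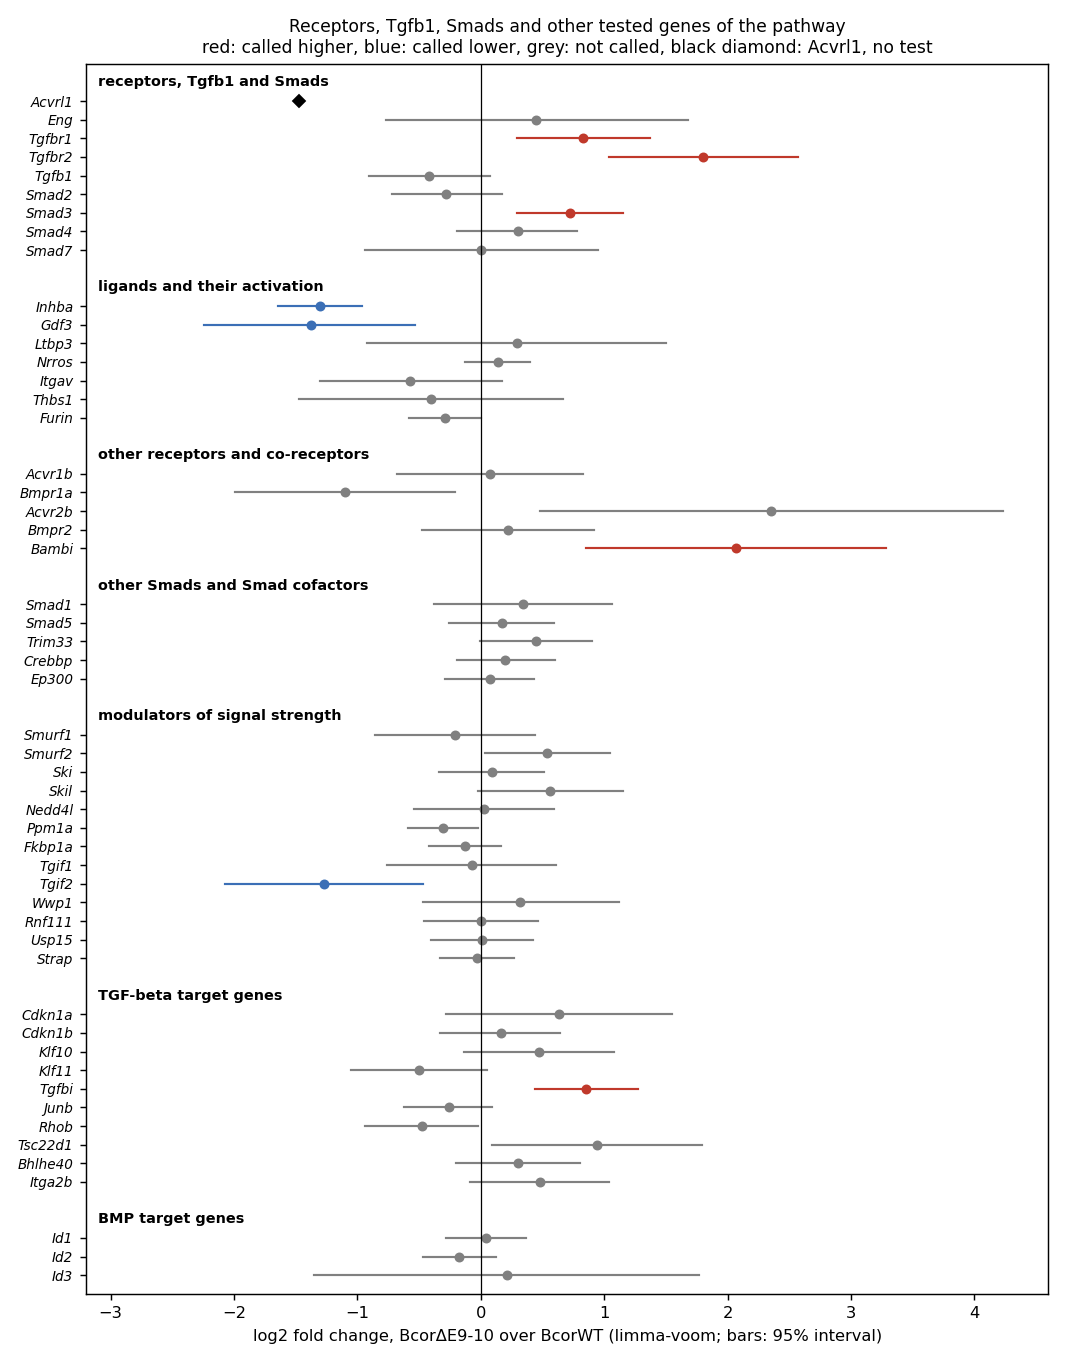
Log2FC values of BcorΔE9-10 over BcorWT (x axis) for the tested members and the 43 other tested genes of the pathway (y axis, grouped by role), with points for limma-voom estimates and bars for 95% intervals. Red points were called higher and blue points lower, grey points were not called, and Acvrl1 is a black diamond at -1.47 with no test.

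Among ligands and the genes that activate them (7 of 22 tested), 2 fell and 5 did not pass by limma, with a median of -0.40. By DESeq2 1 was lower, as by edgeR's quasi-likelihood test. Inhba, which encodes the subunit of activin A, had 29.7, 21.1 and 28.5 CPM in BcorΔE9-10 and 65.9 and 65.0 CPM in BcorWT. The controls agreed closely and lay over 2-fold above every mutant library. The log2FC was -1.30 (SE 0.162, limma adjusted p = 0.000117), and the call was kept in each of 14 alternatives, with values from -1.60 to -1.16. Gdf3, a ligand related to Nodal, had 1.52 to 2.94 CPM in BcorΔE9-10 and 5.48 and 6.39 CPM in BcorWT (log2FC -1.38, limma adjusted p = 0.0394). It passed in 4 of 14 alternatives and lost its call without any 1 library other than BcorWT library 2. Its value is uncertain, because 25.8% of the 30-base words at its transcript end are shared with other genes. Nrros, which tethers latent TGF-β on myeloid cells, was the most abundant uncalled gene of this list (log2FC 0.14, limma adjusted p = 0.546). Tgfb2, Tgfb3, Bmp2, Bmp4 and Gdf2 were among 23 pathway genes with 0 counts in every library, which allows up to 3 counts in each by counting error alone.

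Among other receptors and co-receptors (5 of 12 tested), 1 rose and 4 did not pass by limma, with a median of 0.22. The quasi-likelihood test of edgeR called 2 of them higher and DESeq2 1. Bambi, a pseudoreceptor that lacks a kinase and dampens signalling, had 38, 46 and 47 counts in BcorΔE9-10 and 7 and 11 in BcorWT. The expression filter kept it only through the BcorΔE9-10 libraries, where it was high, so its call is a description. Every mutant library exceeded both controls, with a log2FC of 2.07 (SE 0.574, limma adjusted p = 0.0306). It passed in 9 of 13 alternatives and lost its call without any 1 library other than BcorΔE9-10 library 1. The type II receptor Acvr2b had 3 and 2 counts in BcorWT and 13 to 23 in BcorΔE9-10. It was likewise kept by the filter only through BcorΔE9-10, and its log2FC of 2.35 did not pass (limma adjusted p = 0.105). Bmpr1a, a BMP type I receptor, had a log2FC of -1.10 (limma adjusted p = 0.111), and Bmpr2, its type II partner, one of 0.22 (limma adjusted p = 0.726).

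Of the other Smads and their cofactors (5 of 9 tested) none was called, by limma, edgeR's quasi-likelihood test or DESeq2, and 0 had an unadjusted limma p under 0.05. The median was 0.20. Smad1 (log2FC 0.34) and Smad5 (0.17), which carry BMP signals, had limma adjusted p-values of 0.569 and 0.652. The coactivator Ep300 had a log2FC of 0.074 (limma adjusted p = 0.832). Among modulators of signal strength (13 of 14 tested), Tgif2, a repressor that binds Smads, fell from 5.40 and 7.56 CPM to between 2.22 and 3.26 CPM, with a log2FC of -1.27 (limma adjusted p = 0.0419). It passed in 5 of 14 alternatives and lost its call without any 1 library other than BcorWT library 1. It overlaps 5430405H02Rik (13 to 42 counts) on the opposite strand. The count of 1 lower was also 1 with edgeR's quasi-likelihood test and 0 with DESeq2. The other 12 did not pass, among them the phosphatase Ppm1a (-0.31, limma adjusted p = 0.163).

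Target genes were read as 2 lists. Of 10 tested TGF-β targets, Tgfbi alone was called, with 43.7, 37.2 and 57.0 CPM in BcorΔE9-10 against 27.0 and 23.7 CPM in BcorWT. Its log2FC was 0.85 (SE 0.197, limma adjusted p = 0.0118), kept in 12 of 14 alternatives and lost without BcorΔE9-10 library 3 (0.67, limma adjusted p = 0.0568) or BcorWT library 2 (0.76, limma adjusted p = 0.0525). The list had a median of 0.38, and its most abundant uncalled gene, Junb, was at -0.26 (limma adjusted p = 0.340). Of 3 tested BMP targets none passed, by any of the 3 tools or at an unadjusted limma p under 0.05. Id1 had a log2FC of 0.045 with a 95% interval from -0.28 to 0.37 (limma adjusted p = 0.894), and Id2 one of -0.18 (limma adjusted p = 0.466).

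The pattern of Acvrl1 over the 5 libraries was compared with that of other genes. Each gene was centred on its own mean log2 CPM, and likeness was the root mean square difference from Acvrl1, searched over 6842 genes whose mean log2 CPM was 3 or more. The 5 nearest were S100a6 (0.0983), Il1rn (0.283), Cpa3 (0.314), Prss34 (0.320) and Clec4e (0.325). These 5 were picked for likeness to Acvrl1, so an order over libraries shared with it follows from that choice. Each was highest in BcorWT library 1 and lowest in BcorΔE9-10 libraries. The controls differed by 1.51-fold to 2.26-fold in these 5 genes. S100a6, for example, had 745 and 330 CPM in BcorWT and 173 to 192 CPM in BcorΔE9-10. Of the other 8 tested members Smad2 was the closest, at 0.663 with 688 of these genes nearer, and Tgfbr2 the farthest, at 1.70 with 6808 nearer.

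**Figure D3:**
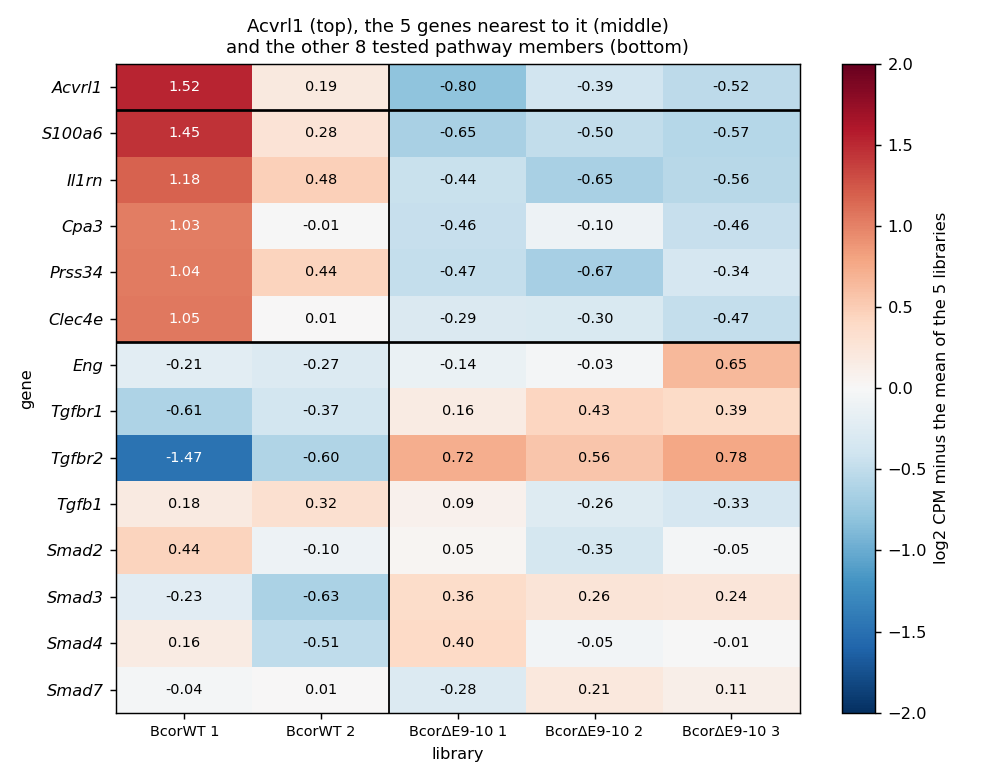
Log2 CPM minus the mean of the 5 libraries (colour and printed value) for Acvrl1, the 5 genes nearest to it and the other 8 tested members (rows) in each library (columns). Acvrl1 runs from 1.52 in BcorWT library 1 to -0.80 in BcorΔE9-10 library 1, and Tgfbr2 runs the other way, from -1.47 in BcorWT library 1 to 0.78 in BcorΔE9-10 library 3.

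Cpa3, a protease of mast cells and basophils, and Prss34, a protease of basophils, belong to a list of 12 basophil, mast cell and eosinophil markers whose summed level was lower in BcorΔE9-10. Of 10 tested markers 6 fell, Cpa3 and Prss34 among them, and 1 (Gata2) rose, with a median of -0.98. Over all genes 4.09% were called lower and 6.02% higher. These shares are also the background of the marker counts that follow. Their summed level was 1620 and 1310 CPM in BcorWT and 599 to 867 CPM in BcorΔE9-10. The most abundant, Prg2 (log2FC -1.30) and Hdc (-0.57), held most of these sums. Siglecf, an eosinophil marker of the list, was higher in BcorΔE9-10 without passing (log2FC 0.77, limma adjusted p = 0.0831). The part of these cells in the value of Acvrl1 was not tested. Of 12 endothelial markers 3 were tested, and the sum of the list was 16.3 and 17.0 CPM in BcorWT and 10.9 to 16.5 CPM in BcorΔE9-10. Cdh5, which defines endothelium, had 5 counts in BcorΔE9-10 library 1 and 0 in the other 4 libraries, and Stab2 had 0 in all. Tie1 fell from 25 and 16 counts to 9, 4 and 3 (limma adjusted p = 0.0499), a call that DESeq2 did not make. The expression filter kept Tie1 only through the BcorWT libraries, where it was high, so this call is a description. Esam, another gene of the list, had 13, 7 and 8 counts in BcorΔE9-10 and 0 and 1 in BcorWT, and Egfl7, the most abundant of the list, was at -0.19 (limma adjusted p = 0.684).

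Other cell types of the marrow were followed in the same way. Of 7 tested macrophage and monocyte markers 1 fell, and their summed level was 1440 CPM in both BcorWT libraries and 1110 to 1170 CPM in BcorΔE9-10, where Ly6c2, the 1 that fell, and Vcam1 were the most abundant. Ly6c2 held most of these sums (1230 and 1250 CPM against 920 to 1010 CPM), and its value is uncertain, because 46.9% of the words at its transcript end are shared with other genes. The macrophage gene C1qa had 21 counts in BcorWT library 2 and 0 or 1 in the others. Of 9 tested erythroid markers 1 (Car1) rose by limma, 5 by edgeR's quasi-likelihood test and 2 by DESeq2, with sums of 74.4 and 106 CPM in BcorWT and 118, 186 and 296 CPM in BcorΔE9-10, the highest in the library in which Eng was also highest. Tfrc and Hba-a2 were the most abundant of this list, and the share of transcript-end words found in other genes was 83.0% for Hba-a2, 89.7% for Hba-a1 and 41.0% for Hbb-bt, so these values and the sums are uncertain. None of the 5 tested megakaryocyte markers was called by limma, edgeR's quasi-likelihood test or DESeq2, with Pf4 and Itga2b the most abundant, a median of 0.48 and 1 unadjusted limma p under 0.05. Of 8 stromal markers only Pdgfrb was tested, and Pdgfra, Lepr, Col1a2 and Col3a1 had 0 counts in every library. Col1a1 had 33 and 6 counts in BcorWT and 3 or 4 in BcorΔE9-10. Among 8 genes of progenitor identity Kit, the antigen of the sort, rose from 18.2 and 19.6 CPM to between 49.4 and 53.4 CPM (log2FC 1.43, limma adjusted p = 9.82e-05), and 7, with Mpo and Prtn3 the most abundant, did not pass. Of the antigens excluded by the sort, Ly6g fell from 570 and 321 CPM to between 208 and 228 CPM (limma adjusted p = 0.00204), with BcorWT library 1 highest as for Acvrl1, and Itgam did not pass (log2FC 0.37, limma adjusted p = 0.0618). The part of these genes in the values of the members was not tested.

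**Figure D4:**
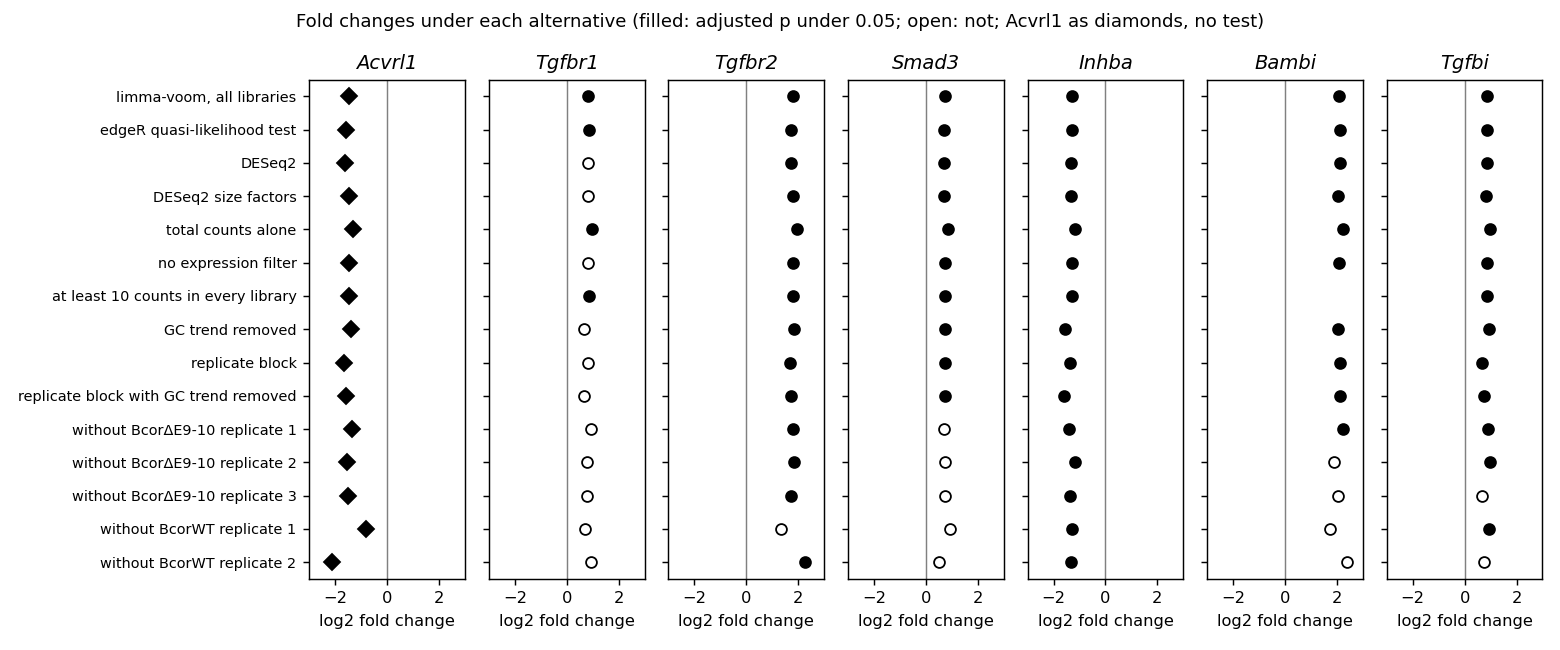
Log2FC values (x axis) of Acvrl1, the 3 called members and 3 other pathway genes under each way of processing the counts (y axis), where filled circles had an adjusted p under 0.05, open circles did not and Acvrl1 is drawn as diamonds with no test. Every value keeps its sign, Inhba passes throughout, and Tgfbr1 passes in 3 of 14 alternatives.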

How the data were processed

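Counts were available for 5 Quant-seq libraries, grouped by their titles. The authors deposited raw counts per gene, which they made by removing low-quality reads, trimming with cutadapt, aligning to mm10 with HISAT2 and counting with featureCounts of Subread (version 1.5.0-p3). The settings for strand and for reads that align to several places are not given in the sources used here. Symbols were assigned to 52403 of 52550 gene identifiers.

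The filterByExpr function of edgeR 4.0.16, set to a count of 10 and a total of 15, kept 11766 genes, 9 of the 10 members among them. The groups were compared with limma 3.58.1 in R 4.3.3, since the study's methods name limma for these libraries. The use of voom values and TMM scaling was chosen here. Tests were two-sided, and p-values were adjusted over the whole table by the Benjamini-Hochberg method. Within groups, counts of library pairs differed by 5.69 to 10.8 in chi-square per gene, where 1 is sampling noise, so each library was kept apart. Alternatives used edgeR's quasi-likelihood test, DESeq2 1.42.0, other scaling and filters, the replicate number as a block, 1 library fewer, and subtraction of a lowess trend (span 0.3) on GC content, read from the final 300 bases of each gene's longest transcript in GENCODE M21. The fits were tested on simulated counts.

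The members and lists were chosen with earlier results of these data known. Genes named were all members, every called pathway gene, the most abundant uncalled gene of each list, the 5 genes nearest to Acvrl1 (predicted genes left out), and of each marker list the 2 most abundant genes and those at 0. Acvr2b, Bmpr1a, Smad1, Smad5, Id1 and the ligands at 0 were named after their values were seen. So were the markers Kit, Gata2, Siglecf, Car1, Cdh5, Hba-a1, Hbb-bt, Esam, C1qa and Ly6a. Depth limits all values, since most members had under 250 counts per library.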

Additional observations from a re-analysis of the deposited data

How the results depend on the processing

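The count of 1189 called genes ran from 1056 to 1454 under the 9 alternatives that kept all libraries, and from 484 to 1141 (4.11 to 9.70% of genes) without 1 library. It was 789 and 708 without BcorΔE9-10 library 2 or 3 and 484 without BcorWT library 1. Where 1 BcorWT library was left, that library was assumed to vary like the others. The 3 members called higher became 0 to 1 without 1 library, since Tgfbr1 (log2 fold change 0.70 to 0.95) and Smad3 (0.52 to 0.93) passed in none of these fits and Tgfbr2 (1.33 to 2.25) in 4 of 5. With all libraries Tgfbr1 was still higher but no longer called with DESeq2 (0.82), DESeq2 size factors (0.81), no expression filter (0.83), the GC trend removed (0.68), the replicate block (0.80) and both of these together (0.66). Acvrl1 ran from -1.68 to -1.33 with all libraries and from -2.13 to -0.80 without 1. Smad7, which was not called in any fit, changed sign with DESeq2 size factors (-0.012), the GC trend removed (-0.43), the replicate block (-0.023) and both together (-0.48), and ran from -0.086 to 0.18 without 1 library. Smad4, also never called, ran from -0.037 to 0.64, below 0 without BcorWT library 2. The 3 other pathway genes called lower became 1 with DESeq2, with total counts alone and with the replicate block, and 1 to 4 without 1 library. The 2 called higher became 1 with at least 10 counts in every library, 4 with the replicate block and the GC trend removed, and 0 to 2 without 1 library. Bambi was not tested with at least 10 counts in every library. Among 69 further comparisons for 5 single genes, 44 kept their call, 25 lost it and 0 changed direction. The cause of these changes was not tested, and leaving 1 library out alters both the number of libraries and the values that remain.

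Replicate numbers are shared by 2 pairs of libraries. Across genes, the deviation of a library from its group's mean had a correlation of 0.0700 and 0.0756 with that of its pair, and no label names a shared litter, batch or day, so the libraries were not treated as paired. With 2 BcorWT libraries their deviations mirror each other, which makes this a weak check. With the replicate block 1454 genes were called.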
